A study of Saccharomyces cerevisiae with 10 samples.

Results

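Ribosomal DNA clusters are the stretches of the yeast ribosomal RNA locus that a crosslinking experiment on Saccharomyces cerevisiae marked as RNA in contact with protein. They were chosen by position alone: every cluster, on either strand, that lies whole within the first annotated rDNA repeat, chrXII:451575-460711 in the R64 genome. The 4 light cluster lists hold 843 such clusters among 184890 in all, namely 180 under glucose starvation, 171 under nitrogen starvation, 278 in light total RNA and 214 in log-phase polyA RNA. One nitrogen cluster, chrXII:460694-460729, crosses the end of the window and was not counted.

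The study used gPAR-CLIP, in which cells take up 4-thiouracil, ultraviolet light crosslinks labelled RNA to protein, all proteins are tagged with biotin, and the RNA that stays with them is sequenced. All cells were one strain, WT BY4742. The labels give its mating type as MATa and its alleles as his3-delta-1 and leu2-delta-0, with lys2-delta-0 as well as ura3-delta-0. All were grown with 200 µM 4-thiouracil and irradiated at 365 nm with 150 mJ/cm2, 4 times. The glucose and nitrogen groups spent 2 h in medium without glucose or without nitrogen, and the light total, heavy total and log-phase polyA groups were in log-phase growth. PolyA groups were selected on oligo(dT) beads and total groups were labelled total RNA. Light means the part of a sucrose gradient lighter than the small ribosomal subunit, and heavy is the other part. Each of the 5 groups has 2 replicates, but the labels name 1 cluster list for both, so every value below is a value of 1 pooled list with no replicate check and no test. The intervals given cover counting error only.

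In yeast, RNA polymerase I copies each repeat into a 35S precursor that is cut and trimmed into 18S, 5.8S and 25S ribosomal RNA, and the external spacers ETS1 and ETS2 and the internal spacers ITS1 and ITS2 are discarded. RNA polymerase III makes 5S ribosomal RNA from its own gene on the other strand, between the non-transcribed spacers NTS1 and NTS2. Small nucleolar RNAs pair with the precursor to guide its cleavage and its modification, and ribosomal proteins and assembly factors bind it while it is still being made.

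The widest stretches that all 4 light lists had in common are printed here because starved and growing cells, and polyA and total RNA, all covered them in the first repeat. The capitals mark the bases covered in all 4 light lists, the lower-case letters are 10 nt of flank, and each sequence is the R64 reference of RefSeq on the minus strand, which is the strand of the precursor, written as DNA from 5′ to 3′.
25S positions 1172 to 1209, chrXII:453973-454010: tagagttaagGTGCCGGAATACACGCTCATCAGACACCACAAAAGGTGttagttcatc
18S positions 425 to 445, chrXII:457288-457308: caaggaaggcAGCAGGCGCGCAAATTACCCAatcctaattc
ITS1 positions 95 to 114, chrXII:455819-455838: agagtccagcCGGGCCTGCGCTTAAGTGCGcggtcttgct
25S positions 2692 to 2707, chrXII:452475-452490: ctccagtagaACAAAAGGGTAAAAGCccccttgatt
25S positions 12 to 27, chrXII:455155-455170: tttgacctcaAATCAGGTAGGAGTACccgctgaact
25S positions 705 to 719, chrXII:454463-454477: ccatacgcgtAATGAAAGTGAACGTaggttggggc
25S positions 2514 to 2527, chrXII:452655-452668: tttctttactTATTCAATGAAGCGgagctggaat
18S positions 1468 to 1480, chrXII:456253-456265: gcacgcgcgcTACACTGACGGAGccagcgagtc

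The stretch in 25S of 38 nt was the widest, and it was also covered in all 4 lists in the second repeat over its whole length. The 25S stretches at positions 12 to 27 and 705 to 719 were not. Only 7 of 16 nt and 2 of 15 nt of them were covered in both repeats of all 4 lists. The ITS1 stretch had 19 of 20 nt so covered, and the others printed were covered whole. The ITS1 stretch lies in a spacer that mature ribosomes do not contain, and it was nearly the same interval in every list: positions 95 to 114 under glucose starvation, 94 to 115 under nitrogen starvation, 95 to 115 in light total RNA and 95 to 114 in log-phase polyA RNA. The 18S stretch ended at position 445 in all 4 lists, while its cluster began at position 425 under glucose starvation and nitrogen starvation, at 409 in light total RNA and at 403 in log-phase polyA RNA. After these 8 stretches came 5 of 12 nt, all in 25S, which begin at positions 1452, 1568, 1756, 1994 and 2295. The one at position 1452 had 2 of its 12 nt covered in both repeats of all 4 lists, and the rest were covered whole.

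Shares of list size come first. The rDNA window took 0.540% of clusters under glucose starvation (95% Wilson interval 0.467 to 0.624), 0.439% under nitrogen starvation (0.378 to 0.510), 0.539% in light total RNA (0.479 to 0.606) and 0.351% in log-phase polyA RNA (0.307 to 0.401). The lists differ in length, with 33345, 38936, 51574 and 61035 clusters in the same order, so a share can move because other RNAs entered or left the list. On both strands together, clusters covered 621 nt per 100000 nt of list under glucose starvation, 561 nt under nitrogen starvation, 552 nt in light total RNA and 441 nt in log-phase polyA RNA. On the log2 scale this was 0.49 above log-phase polyA for glucose, 0.35 for nitrogen and 0.32 for light total. The cluster counts per list size were 1.54 times those of log-phase polyA for glucose (exact interval 1.26 to 1.89), 1.25 times for nitrogen (1.02 to 1.54) and 1.54 times for light total (1.28 to 1.85). The median over all genes covered in either list was 0.26 for glucose, 0.13 for nitrogen and 0.07 for light total, so the window on both strands lay above the genes' median in each comparison. With clusters of at least 10 nt the light total value was 0.081, close to the genes' 0.07 from clusters of all widths. The snoRNA genes moved the same way. On their own strand they had 307 clusters under glucose starvation, 329 under nitrogen starvation and 369 in light total RNA, against 265 in log-phase polyA RNA. Log-phase polyA is the longest list, so a higher share was not particular to the rDNA. On the 35S strand only, the window stood at 0.65 for glucose, 0.39 for nitrogen and 0.0175 for light total, again with no added length. That light total value was a smaller number than the genes' 0.07, with the same limit. In plain covered bases, without scaling to the list, the starved lists had less: 2477 nt under glucose starvation, 2579 nt under nitrogen starvation and 4388 nt in light total RNA, against 3056 nt in log-phase polyA RNA.

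**Figure D1:**
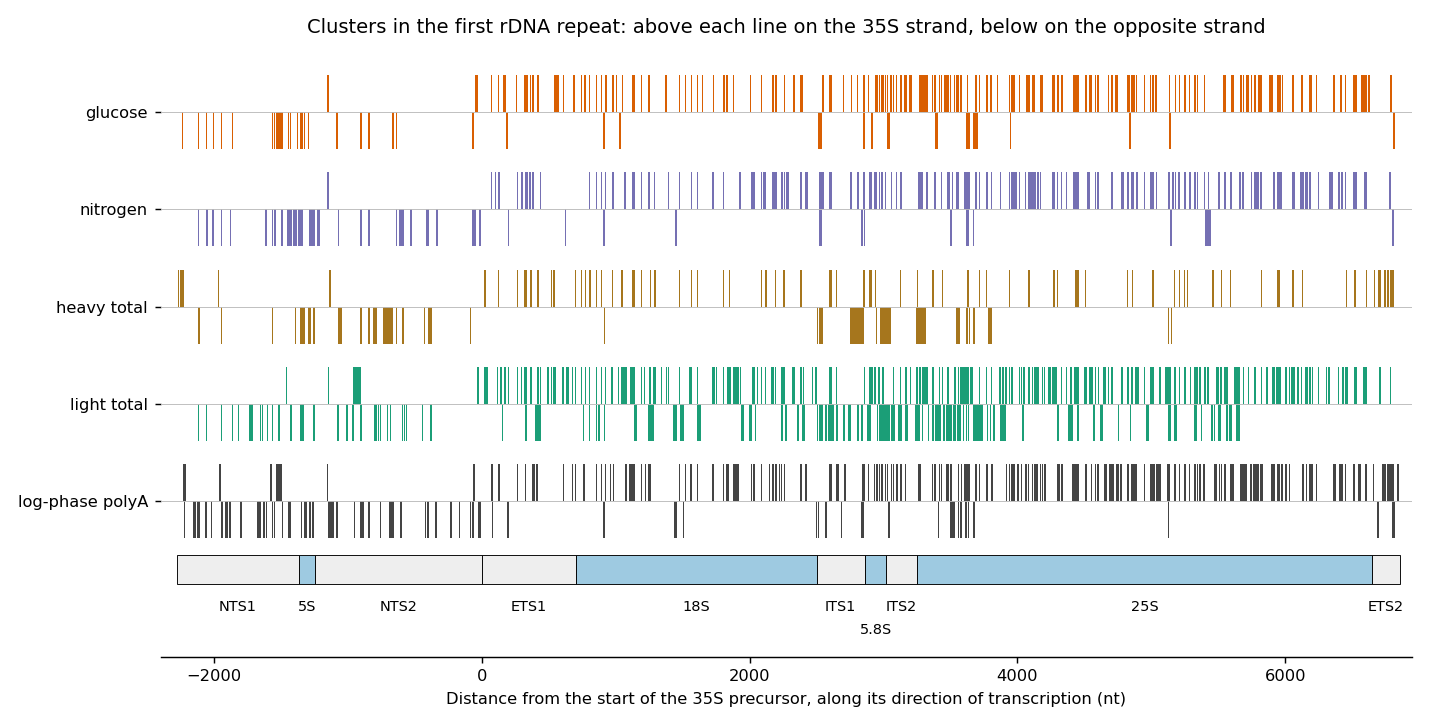
Every cluster of the first rDNA repeat, placed by its distance in nt from the start of the 35S precursor. Each list has a line, with clusters of the precursor strand above it and of the opposite strand below it, and the bar at the foot shows the mature RNAs in blue and the spacers in grey. The light total list has clusters below its line across 18S, ITS1, 5.8S, ITS2 and 25S as far as position 2408. The polyA lists have fewer there.

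The 25S RNA, at chrXII:451786-455181 on the minus strand, forms most of the large subunit and held the largest number of clusters. It had 77 clusters under glucose starvation, 73 under nitrogen starvation, 93 in light total RNA and 81 in log-phase polyA RNA. They covered 34.2%, 34.5%, 42.7% and 37.7% of its 3396 nt in those lists. The light total list was the highest and the starved lists the lowest, and the second repeat had the same order of light total over log-phase polyA over the starved lists, with 31.9% for glucose, 30.8% for nitrogen, 42.1% for light total and 37.7% for log-phase polyA. Scaled to list size, 25S was 0.66 above log-phase polyA on the log2 scale under glucose starvation and 0.47 above under nitrogen starvation, and light total RNA was at -0.02. Of its 34 windows of 100 nt (the last of 96 nt), 33 were covered in all 4 lists, and positions 3001 to 3100 were covered under nitrogen starvation at 29% and in light total RNA at 24% but not under glucose starvation or in log-phase polyA RNA. In the second repeat they were covered to 14% under glucose starvation, 10% under nitrogen starvation, 25% in light total RNA and 64% in log-phase polyA RNA, so that gap was not there in both copies.

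The 5′ end of 25S set log-phase polyA RNA below the other lists. Positions 1 to 100 were covered to 69% under glucose starvation, 57% under nitrogen starvation and 72% in light total RNA, against 21% in log-phase polyA RNA. In the second repeat the same bases were covered to 64%, 52% and 63% in the first 3 lists and to 23% in log-phase polyA RNA, so log-phase polyA was the low list in both copies. Clusters of 52 nt under glucose starvation and 48 nt in light total RNA spanned positions 30 to 81 and 36 to 83, and neither overlapped a log-phase polyA cluster. Positions 801 to 900 were covered to 51% under glucose starvation, 77% under nitrogen starvation, 62% in light total RNA and 67% in log-phase polyA RNA, with 30%, 40%, 62% and 78% in the second repeat, so glucose was the low list in both copies. There the nitrogen list held a cluster of 59 nt, at positions 829 to 887, that was the widest of any in 25S and overlapped clusters of the other 3 light lists. Positions 301 to 400 were covered to 78% in light total RNA and to 24%, 52% and 60% in the glucose, nitrogen and log-phase polyA lists. The second repeat gave 84% in light total RNA and 17%, 43% and 38% in those lists.

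The 18S RNA, at chrXII:455933-457732 on the minus strand, forms the small subunit. It was covered to 18.9% under glucose starvation, 20.4% under nitrogen starvation, 31.8% in light total RNA and 21.3% in log-phase polyA RNA, by 30, 29, 39 and 30 clusters. The second repeat gave 23.3%, 18.5%, 31.3% and 19.4%, so light total was the high list in both copies, and the order of the 3 polyA lists changed. Positions 301 to 400 were one place where light total was the high list in both copies, with 13% under glucose starvation, 14% under nitrogen starvation and 55% in light total RNA, against 17% in log-phase polyA RNA, and the second repeat gave 8%, 7%, 54% and 10%. One cluster of 47 nt, at positions 341 to 387, accounts for most of the light total value in that window. The window of positions 1101 to 1200 was covered to 8% under nitrogen starvation and to 38% under glucose starvation, 56% in light total RNA and 50% in log-phase polyA RNA, and nitrogen was again the low list in the second repeat, with 16%. The longest stretch of 18S that no light list covered in either repeat was 76 nt, positions 696 to 771, and it holds 25 T, the base that 4-thiouracil replaces as U in RNA. In 25S, the longest such stretch was 38 nt, at positions 473 to 510, with 11 T.

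Covered positions were in part common to the lists. In 25S, 68.1% of bases lay in a cluster of at least 1 light list and 414 nt in clusters of all 4, split over 45 stretches. In 18S the figures were 43.7% and 147 nt over 18 stretches. Over the whole window 82 stretches with a median width of 8 nt, 708 nt together, were covered in all 4 light lists. Of the 180 glucose clusters 77.2% overlapped a log-phase polyA cluster (Wilson interval 70.6 to 82.7), of the 171 nitrogen clusters 78.4% (71.6 to 83.9) and of the 278 light total clusters 50.4% (44.5 to 56.2). Taken from the other list, 64.5% of log-phase polyA clusters overlapped a glucose cluster, 63.1% a nitrogen cluster and 66.4% a light total cluster. These shares are of the window alone, with no share over the whole lists beside them.

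The repeats serve as a check on how finely a cluster is placed. The second repeat, from chrXII:460712-468929, is identical in sequence to the first over 8218 nt, so reads from either cannot be told apart by sequence, and it is no replicate. Its clusters were nevertheless not the same: both ends agreed for 28 of 168 glucose clusters, 36 of 159 nitrogen clusters, 80 of 264 light total clusters and 35 of 192 log-phase polyA clusters. On the precursor strand, of bases covered in either repeat, 62.3% were covered in both for glucose, 62.96% for nitrogen, 90.9% for light total and 63.97% for log-phase polyA. Over both strands the shares were 59.0%, 61.7%, 72.4% and 59.6% in the same order. The light total clusters were thus placed less alike off the precursor strand than on it. The sources used here do not say how reads that match more than 1 place were assigned. Between lists, over the 3 pairings that include a first repeat, the precursor-strand share ran from 32.9% to 45.2%. That was below each precursor-strand share within a list. Both copies of a list draw on the same libraries, so closer agreement within a list is built in and says nothing of replicate spread. A difference between lists in a single region was read beside the second repeat only to see whether it depended on cluster placement.

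**Figure D2:**
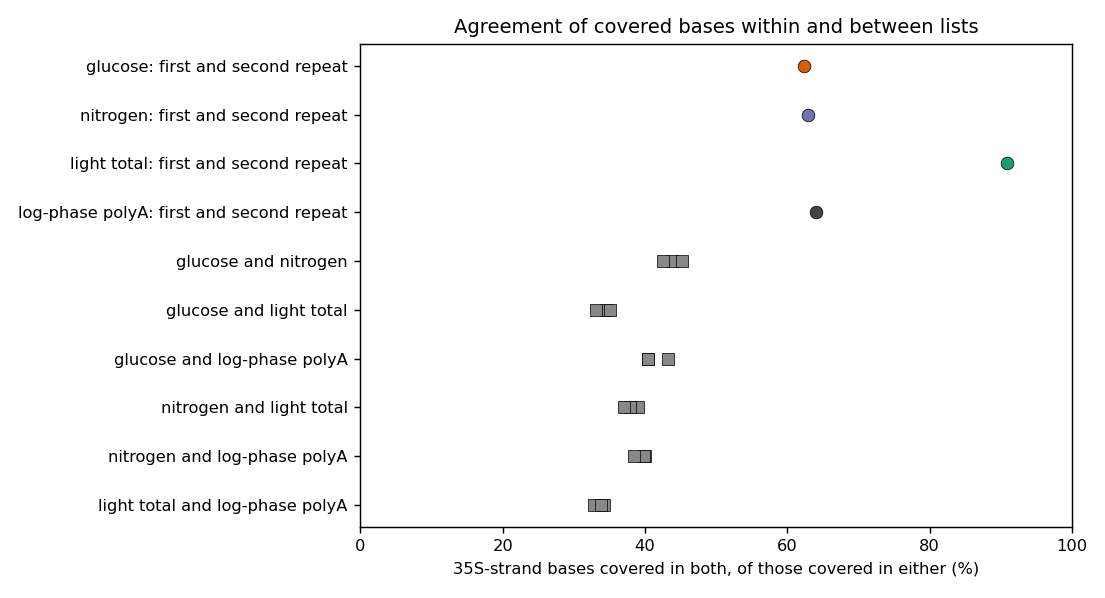
Percent of precursor-strand bases covered in both of a pair, of those covered in either. Circles compare the first with the second repeat of 1 list, and squares compare lists, with a square for each of the 3 pairings that include a first repeat. Circles lie between 62.3% and 90.9%, all to the right of the squares, which lie between 32.9% and 45.2%.

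ETS1 is the 5′ external spacer, the binding site of the U3 small nucleolar RNA that starts 18S processing. It had 184 covered nt of 700 under glucose starvation, 123 under nitrogen starvation and 229 in light total RNA, against 100 in log-phase polyA RNA. With 20 nt added to each length and scaled to the list, glucose was 1.56 above log-phase polyA on the log2 scale. In the second repeat the log-phase polyA list had 163 nt and the glucose list 165 nt, and the ratio was 0.81, so the 2-fold difference was not there in both copies. Nitrogen had 93 nt there, below log-phase polyA, and its log2 ratio went from 0.85 in the first repeat to -0.10 in the second. Within ETS1, positions 301 to 400 were covered to 50% under glucose starvation, 55% under nitrogen starvation, 34% in light total RNA and 29% in log-phase polyA RNA. In the second repeat the values were 41%, 34%, 35% and 38%, so log-phase polyA was not the low list in both copies. Positions 501 to 600 were covered to 38% under glucose starvation, 31% in light total RNA and 5% in log-phase polyA RNA, and were not covered under nitrogen starvation. The second repeat gave values of 18%, 34% and 7% in those 3 lists and again no coverage under nitrogen starvation.

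ITS2 separates 5.8S from 25S and is cut and then trimmed by the exosome on its 5.8S side. It had 95 covered nt of 232 under glucose starvation and 67 in log-phase polyA RNA, a log2 ratio of 1.20 with 20 nt added. The second repeat gave 82 and 65 nt and a ratio of 1.06, past 2-fold in both copies, where 15.9% of genes passed 2-fold. The first repeat had 8 and 7 clusters in these lists. Per list size that is a ratio of 2.09, with an exact interval of 0.663 to 6.78 that includes 1. Nitrogen and light total had 37 and 47 nt in the first repeat, with 65 and 41 nt in the second. One interval, positions 106 to 116, was the same to the base under glucose starvation, under nitrogen starvation and in log-phase polyA RNA, and light total RNA had positions 107 to 115. The interval reads, on the precursor strand, as follows, all of it covered in the 3 polyA lists.
ITS2 positions 106 to 116, chrXII:455298-455308: GTGCTTGAGGT

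ITS1, the spacer between 18S and 5.8S, was covered to 22.7% under glucose starvation, 29.1% under nitrogen starvation, 13.9% in light total RNA and 21.1% in log-phase polyA RNA. The second repeat had it covered to 29.6%, 42.9%, 13.3% and 18.3%, so nitrogen was the high list and light total the low list in both. Its end at the 5.8S border carried a cluster in every list, from positions 345 under glucose starvation, 347 under nitrogen starvation, 352 in light total RNA and 341 in log-phase polyA RNA, reaching position 361 under glucose starvation and 362, the first base of 5.8S, in the others. Glucose and nitrogen also shared clusters near positions 21 to 54, where light total and log-phase polyA had no overlapping one.

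ETS2, the 3′ external spacer that RNase III (Rnt1) cuts in yeast, had more covered bases in log-phase polyA RNA than in the other light lists. It had 19 covered nt of 211 under glucose starvation, 13 under nitrogen starvation and 22 in light total RNA, against 98 in log-phase polyA RNA. The second repeat gave 14, 11 and 30 nt, against 95 in log-phase polyA RNA, so log-phase polyA was the high list in both copies. The log2 ratio to log-phase polyA, with 20 nt added, was -0.80 for glucose, -1.25 for nitrogen and -1.69 for light total in the first repeat, and -0.96, -1.30 and -1.40 in the second. These rest on 1, 1 and 2 clusters against 5, and the exact intervals of the cluster ratios all include 1 (for nitrogen 0.00663 to 2.80). The clusters that remained in the other lists fell on positions 132 to 152, inside the widest log-phase polyA cluster of 48 nt at positions 116 to 163, apart from 1 light total cluster at positions 57 to 68. The heavy total list, which is drawn from the same log-phase culture condition, covered 80 nt of ETS2. All 115 clusters of the heavy list lie in the rDNA window, and whether it holds every cluster called in that fraction is not known. The sequence of the widest log-phase cluster, in which capitals mark all its bases, shows how rich in T it is, with 18 T in 48 bases.
ETS2 positions 116 to 163, chrXII:451623-451670: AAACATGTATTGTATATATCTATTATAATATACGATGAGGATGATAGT

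Counted over all 10 regions, each on its own strand and the non-transcribed spacers on both, 2 regions passed 2-fold against log-phase polyA under glucose starvation (ETS1 and ITS2, both higher). Over all genes covered in either of those lists, 15.9% passed 2-fold. In the second repeat, where 8 regions could be counted, 3 passed, all higher: ITS2 again, with 18S (1.04) and ITS1 (1.36) in place of ETS1. Under nitrogen starvation 1 region passed (ETS2, lower), with 14.7% of genes past it, and in the second repeat ITS1 passed as well (1.62, higher). In light total RNA 2 regions passed (ETS2 and NTS1, both lower), with 37.7% of genes past it, and in the second repeat, which does not cover NTS1, ETS2 alone passed. The counts of 2, 1 and 2 of 10 are near or below those backgrounds, the regions differ between repeats, and they were read as no result about the rDNA regions as a whole.

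**Figure D3:**
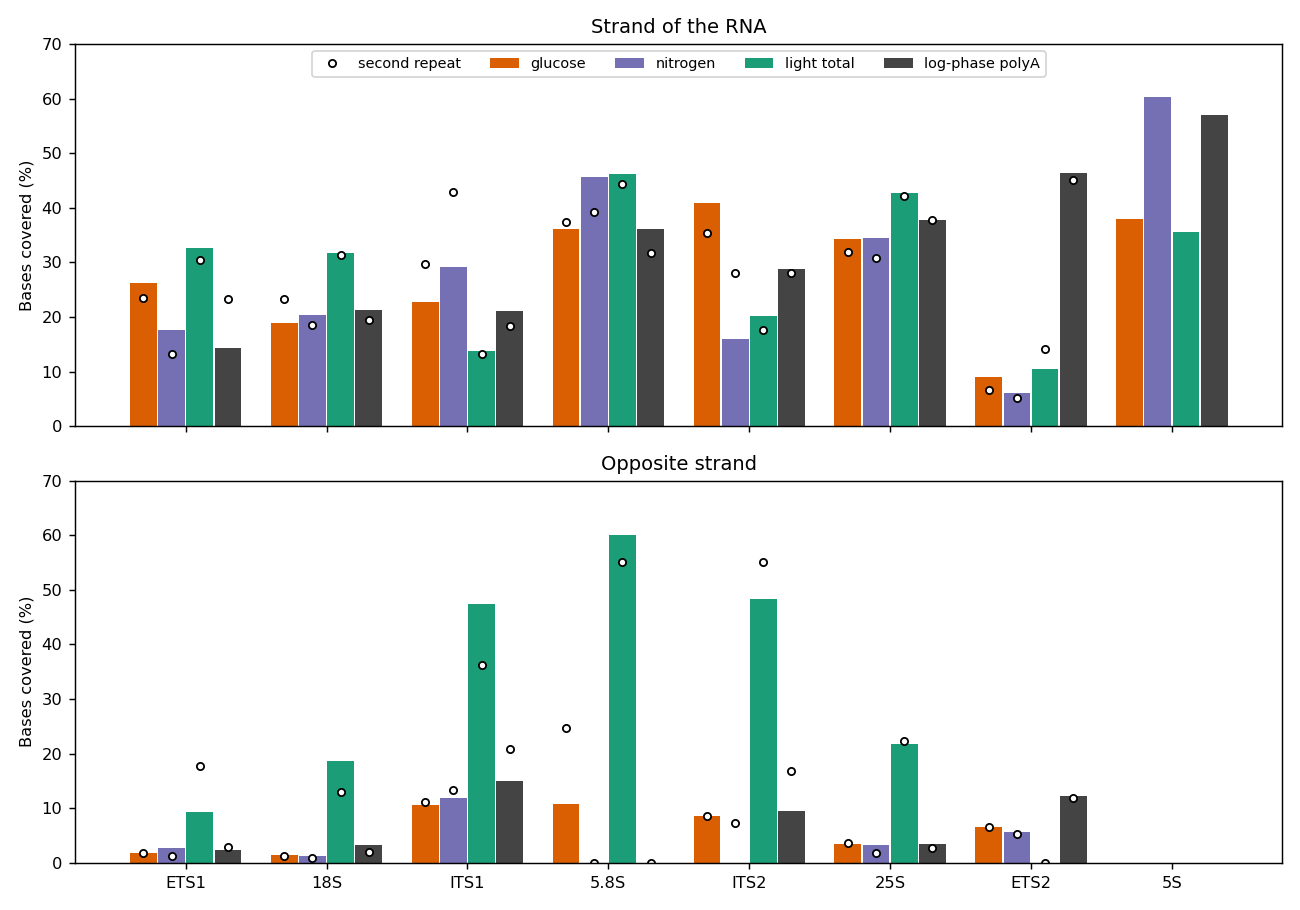
Percent of bases covered in each transcribed region, on the strand of the RNA (upper panel) and on the opposite strand (lower panel). Bars are the first repeat, open circles the second repeat, and bars stand in the order glucose, nitrogen, light total, log-phase polyA. ETS2 is highest in log-phase polyA with 46.5%, and on the opposite strand 5.8S reaches 60.1% in light total against 0 in log-phase polyA.

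The 5.8S RNA pairs with 25S in the large subunit. It was covered to 36.1% under glucose starvation, 45.6% under nitrogen starvation, 46.2% in light total RNA and 36.1% in log-phase polyA RNA, with 37.3%, 39.2%, 44.3% and 31.6% in the second repeat. All 4 lists left positions 2 to 23 uncovered in both repeats. The 4 lists are printed for the RNA at chrXII:455414-455571, with capitals for covered bases, because they show where the clusters of glucose and log-phase polyA part from the others in the middle of the RNA.
5.8S, glucose: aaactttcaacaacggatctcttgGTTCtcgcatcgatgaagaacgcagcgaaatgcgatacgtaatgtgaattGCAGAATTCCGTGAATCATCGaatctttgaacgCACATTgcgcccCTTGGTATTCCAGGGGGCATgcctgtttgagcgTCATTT
5.8S, nitrogen: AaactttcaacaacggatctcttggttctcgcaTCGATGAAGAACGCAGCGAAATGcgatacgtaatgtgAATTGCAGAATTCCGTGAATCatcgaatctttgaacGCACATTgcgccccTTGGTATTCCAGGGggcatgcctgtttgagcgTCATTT
5.8S, light total: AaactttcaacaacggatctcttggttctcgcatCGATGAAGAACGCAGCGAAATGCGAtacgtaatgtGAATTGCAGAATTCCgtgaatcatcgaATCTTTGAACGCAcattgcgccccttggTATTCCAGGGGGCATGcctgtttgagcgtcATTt
5.8S, log-phase polyA: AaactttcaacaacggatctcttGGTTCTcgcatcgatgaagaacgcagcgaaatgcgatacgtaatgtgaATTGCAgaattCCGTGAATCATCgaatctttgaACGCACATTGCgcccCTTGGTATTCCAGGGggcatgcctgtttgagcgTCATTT
Nitrogen and light total had a cluster at positions 34 to 56 and 35 to 59 that neither glucose nor log-phase polyA had. Those 2 lists instead had a small cluster at positions 25 to 28 and 24 to 29. Positions 153 to 158, at the 3′ end, were covered in the 3 polyA lists, and positions 155 to 157 of these in light total RNA as well.

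The 5S RNA, at chrXII:459676-459796 on the plus strand, joins the large subunit with ribosomal proteins Rpl5 and Rpl11. It was covered to 38.02% under glucose starvation, 60.3% under nitrogen starvation, 35.5% in light total RNA and 57.0% in log-phase polyA RNA, by 3, 2, 2 and 4 clusters, and no list had a cluster opposite it. The stretch that the repeats share ends inside 5S, so no second copy is set beside it. The sequences are printed because the lists differed in which part of the RNA they covered, capitals being covered bases.
5S, glucose: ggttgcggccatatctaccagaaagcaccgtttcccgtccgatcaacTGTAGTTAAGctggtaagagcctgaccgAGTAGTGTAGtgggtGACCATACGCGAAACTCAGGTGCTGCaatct
5S, nitrogen: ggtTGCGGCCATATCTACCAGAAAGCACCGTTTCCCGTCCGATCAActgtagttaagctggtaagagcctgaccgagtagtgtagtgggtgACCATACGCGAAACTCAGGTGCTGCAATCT
5S, light total: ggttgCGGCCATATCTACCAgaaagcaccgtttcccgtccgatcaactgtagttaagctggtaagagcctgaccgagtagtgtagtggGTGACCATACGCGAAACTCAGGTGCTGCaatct
5S, log-phase polyA: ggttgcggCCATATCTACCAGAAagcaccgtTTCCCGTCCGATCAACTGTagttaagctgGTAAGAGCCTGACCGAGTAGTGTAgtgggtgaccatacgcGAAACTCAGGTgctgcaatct
Positions 101 to 111 were covered in all 4 lists. The nitrogen list had clusters of 43 nt at positions 4 to 46 and 37 nt at positions 92 to 128, the second of which runs past the 3′ end of the RNA into NTS1. Glucose left the first 47 positions uncovered, which nitrogen, light total and log-phase polyA all covered in part.

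The non-transcribed spacers lie on either side of the 5S gene and hold the promoter and terminator elements of the precursor. NTS1 was covered on both strands to 7.76% under glucose starvation, 10.3% under nitrogen starvation and 8.09% in light total RNA, against 17.9% in log-phase polyA RNA. Its minus strand had 0 clusters in the glucose and nitrogen lists, 1 in light total and 4 in log-phase polyA, and its plus strand, the strand of 5S, had 12, 11, 13 and 18. The first 100 nt downstream of 5S on that strand were covered to 24% under glucose starvation, 80% under nitrogen starvation, 11% in light total RNA and 28% in log-phase polyA RNA. NTS2 was covered on both strands to 4.14%, 9.01% and 9.45% in the glucose, nitrogen and light total lists and to 12.2% in log-phase polyA. In the second repeat light total had 11.8% and log-phase polyA 10.1%, while glucose stayed the low list with 3.94%.

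On the opposite strand of the precursor as a whole, light total RNA had a higher share of clusters than the 3 polyA lists. Of clusters within the 35S gene 10.8% lay opposite to it under glucose starvation (Wilson interval 6.87 to 16.7), 11.2% under nitrogen starvation (7.01 to 17.4), 31.8% in light total RNA (26.3 to 37.9) and 14.3% in log-phase polyA RNA (9.79 to 20.4). In the second repeat the shares were 10.1%, 9.42%, 35.7% and 14.8%. For clusters at messenger RNA genes the order was the other way round, with 5.28% opposite in light total RNA and 19.1% in log-phase polyA RNA, and for snoRNA genes it was 3.15% and 11.1%. For tRNA genes it was 2.25% in light total RNA (Wilson interval 1.23 to 4.09) and 1.77% in log-phase polyA RNA (0.487 to 6.22), with intervals that overlap. So light total RNA had the highest opposite share at the ribosomal precursor and a lower share than log-phase polyA at mRNA and snoRNA genes. The source of the opposite clusters was not tested.

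**Figure D4:**
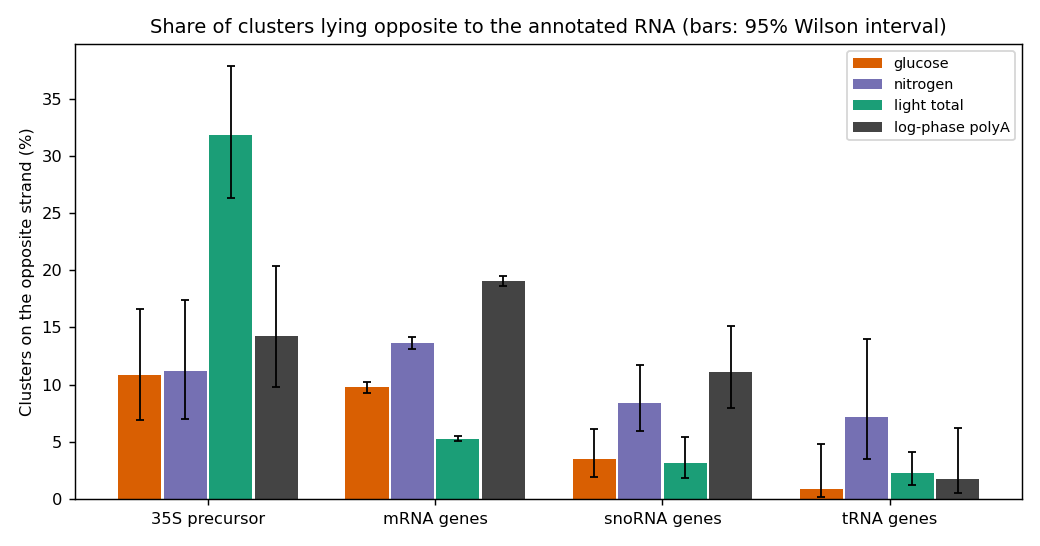
Percent of clusters on the opposite strand of the annotated RNA, by class of gene and list, with 95% Wilson intervals. For the 35S precursor light total stands at 31.8% and the other light lists at 10.8% to 14.3%, while for mRNA genes light total is the lowest at 5.28%.

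By region, the opposite strand of 25S had 38 clusters in light total RNA and 9 in log-phase polyA RNA, or 5.00 times as many per list size (exact interval 2.38 to 11.8). They covered 740 and 118 nt, and in the second repeat 756 and 91 nt. Opposite to 18S there were 19 and 3 clusters, a ratio of 7.50 (2.21 to 39.6). Opposite to 5.8S light total covered 95 nt and log-phase polyA none, with 87 nt and none in the second repeat. That was 3 clusters against 0, and the exact interval of the cluster ratio began at 0.489, below 1. Opposite to ITS2 the lists covered 112 and 22 nt, with 128 and 39 nt in the second repeat. Scaled to the list, the log2 ratios there were 1.45 and 1.13, past 2-fold in both copies, where 37.7% of genes passed 2-fold. They rest on 5 and 2 clusters in the first repeat. The cluster ratio per list size was 2.96, with an exact interval of 0.484 to 31.1 that includes 1. Opposite to ITS1 the lists covered 171 and 54 nt, with 131 and 75 nt in the second repeat. Its scaled log2 ratio was 1.17 in the first repeat and 0.47 in the second, so the 2-fold difference was not there in both copies. The ITS1 cluster ratio was 2.13, with an interval of 0.641 to 8.09 that includes 1. ETS2 went the other way: opposite to it light total covered 0 nt in both repeats, and glucose covered 14, nitrogen 12 and log-phase polyA 26 nt in the first. The clusters were not spread evenly along 25S: in light total RNA 58.0% of the bases opposite positions 1 to 700 were covered and 12.4% of those opposite positions 701 to 3396, a division made after the values were seen. Of the 78 opposite clusters in light total RNA, 58 (74.4%, Wilson interval 63.7 to 82.7) overlapped no cluster of another light list, against 3 of 24 in log-phase polyA RNA. On the precursor strand 26 of 167 light total clusters and 11 of 144 log-phase polyA clusters overlapped none. The glucose, nitrogen and log-phase polyA lists held 17, 16 and 24 opposite clusters, so light total clusters had fewer to overlap. No share over the whole lists is set beside these counts, and they are not read as a trait of the rDNA. The bases opposite 5.8S are shown for the light total list, in which they are covered most, with capitals for covered bases on the plus strand.
Opposite 5.8S, light total, chrXII:455414-455571: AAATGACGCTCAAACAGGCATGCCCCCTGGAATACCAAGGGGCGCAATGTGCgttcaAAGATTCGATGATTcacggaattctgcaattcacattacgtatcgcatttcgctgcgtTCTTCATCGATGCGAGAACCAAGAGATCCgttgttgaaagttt

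TAR1 is a protein-coding gene, named for its transcript antisense to ribosomal RNA, that lies opposite 25S at chrXII:454696-455070 on the plus strand. Its clusters numbered 5 under glucose starvation, 5 under nitrogen starvation, 11 in light total RNA and 8 in log-phase polyA RNA, and covered 20.8%, 12.3%, 70.7% and 29.3% of it. With the TAR1 interval left out, the opposite share was 8.70% under glucose starvation, 8.59% under nitrogen starvation, 30.0% in light total RNA and 10.8% in log-phase polyA RNA, so the light total share stayed the highest without TAR1.

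Precursor-strand clusters held a G more often than mRNA clusters did, most of all within the polyA lists. A G inside the cluster, between its first and last base, was present in 85.0% of precursor-strand clusters under glucose starvation (Wilson interval 78.2 to 90.0), 83.5% under nitrogen starvation (76.0 to 88.9), 88.0% in light total RNA (82.2 to 92.1) and 85.4% in log-phase polyA RNA (78.7 to 90.3). In mRNA clusters the shares were 31.7%, 26.0%, 77.7% and 23.7%. Clusters of tRNA genes had 87.6%, 84.6%, 95.9% and 91.9% and those of snoRNA genes 73.0%, 74.8%, 73.2% and 66.4%. In the 3 polyA lists all 3 of these classes were above the mRNA clusters. In light total RNA the snoRNA share was below that of mRNA, and in log-phase polyA RNA the snoRNA interval (60.5 to 71.8) lay below that of the precursor. The sequence of the precursor strand is 26.4% G and that of mRNA genes 20.4% G. G made up 25.9%, 26.4%, 28.0% and 24.7% of precursor-strand cluster bases and 6.78%, 5.54%, 16.3% and 6.75% of cluster bases in the rest of the lists. On the opposite strand of the precursor the polyA lists were low again, with a G inside 41.2%, 18.8% and 29.2% of 17, 16 and 24 clusters, and light total was high with 82.1% of 78. The part of the nuclease, which the sources used here do not name, was not tested.

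**Figure D5:**
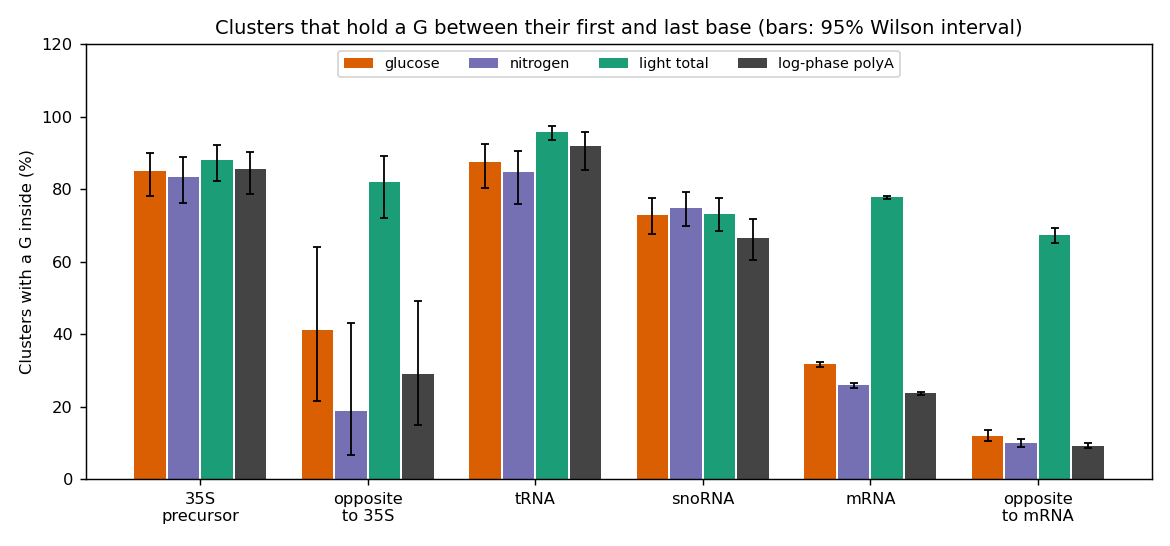
Percent of clusters with a G between the first and last base, by class and list, with 95% Wilson intervals. Precursor clusters stand at 83.5% to 88.0% in every light list, and mRNA clusters at 23.7% to 31.7% in the polyA lists and 77.7% in light total.

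Small nucleolar RNAs of the box C/D family guide the methylation of the ribosomal base that pairs 5 nt from the box. Perfect complements of at least 10 nt to 18S or 25S, ending beside a CTGA box, were found in 23 of 76 snoRNA genes, giving 24 complements. In 25S the guided base was covered at 7 of 18 positions under glucose starvation, 11 under nitrogen starvation, 8 in light total RNA and 11 in log-phase polyA RNA, and in 18S at 0, 0, 1 and 1 of 5. The 18S complements were covered to 1.72%, 3.45%, 18.97% and 17.2%, against 18.9%, 20.4%, 31.8% and 21.3% of all 18S bases. The 25S complements were covered to 36.7%, 55.1%, 43.4% and 51.0%, against 34.2%, 34.5%, 42.7% and 37.7% of all 25S bases. Nitrogen and log-phase polyA were thus higher in complements than over 25S, and no test was made of it. The base guided by SNR50 (position 867) and by SNR72 (position 876) was covered in all 4 light lists.

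Other genes of the pathway are read from their own clusters, as covered nt with 20 nt added, scaled to the list. Of the 7 processing RNAs, which pair with or cut the precursor, 4 were 2-fold or more above log-phase polyA under glucose starvation and 0 below, where 11.5% of all genes were above and 4.37% below. All snoRNA genes together had 307 own-strand clusters in the glucose list of 33345 and 265 in the log-phase polyA list of 61035. A higher share under glucose starvation was therefore not particular to the processing RNAs. Under nitrogen starvation 1 was above and 0 below, with 9.73% of genes above and 4.97% below, and in light total RNA 0 were past 2-fold in either direction, with 19.6% of genes above and 18.2% below. SNR10, a guide RNA with a part in 18S production, had 74 covered nt under glucose starvation and 115 under nitrogen starvation, against 39 in log-phase polyA RNA, log2 ratios of 1.47 and 1.79. SNR17B, a copy of U3, had 130 nt under glucose starvation against 78, a log2 ratio of 1.41.

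Of 22 genes for RNA polymerase I and its factors, 21 had a cluster in one of the lists compared. Under glucose starvation 3 were above 2-fold and 0 below, near the 11.5% and 4.37% of all genes. Under nitrogen starvation none was past 2-fold, where 9.73% of genes were above and 4.97% below. In light total RNA 3 were above and 7 below, where 19.6% of genes were above and 18.2% below. RRN11, a subunit of the core promoter factor, had 12 covered nt in light total RNA and 121 in log-phase polyA RNA, a log2 ratio of -2.34, and RPC19, a subunit shared with RNA polymerase III, had 73 and 5, a ratio of 1.70.

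Of 19 nuclease and cofactor genes, 5 were above and 1 below under glucose starvation, against 11.5% and 4.37% of all genes. Under nitrogen starvation 0 were above and 1 below, against 9.73% and 4.97% of genes, and in light total RNA 1 was above and 4 below, against 19.6% and 18.2%. The single gene below in each starved list is at the background. XRN1, the cytoplasmic 5′ to 3′ exonuclease, had 39 clusters in light total RNA and 12 in log-phase polyA RNA. They covered 589 and 130 nt, a log2 ratio of 1.82. RAI1, the partner of the nuclear exonuclease Rat1, had 46 covered nt under glucose starvation and 15 in log-phase polyA RNA, a ratio of 1.71. NGL2, which trims the 3′ end of 5.8S, had 0 nt under glucose starvation and under nitrogen starvation and 11 in light total RNA, against 64 in log-phase polyA RNA.

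Of 6 genes for proteins that accompany 5S, 2 were above and 0 below under glucose starvation, against 11.5% and 4.37% of all genes. Under nitrogen starvation 5 of the 6 were covered in either list, and 0 were above and 2 below, against 9.73% and 4.97% of genes. In light total RNA 1 was above and 0 below, against 19.6% and 18.2%. RPL5 had 3 clusters under nitrogen starvation and 14 in log-phase polyA RNA, with 30 and 296 covered nt and a log2 ratio of -2.07. RPL11B had 33 and 159 nt, a ratio of -1.16.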

How the data were processed

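The measurements are gPAR-CLIP clusters of 10 libraries in 5 groups of 2. The authors deposited 1 list of cluster intervals per group (chromosome, start, end, name and strand), which carry no measured value of their own, and the labels name the same list for both replicates. Depth is unknown, because the score column of the light lists is 0 throughout and the heavy list has none. Reads were aligned with Bowtie 0.12.7 to R64, per the submitters' processing notes; the sources used here give no cluster caller, no nuclease and no rule for reads that match more than 1 place. Coordinates were read as counting from 0 and are given counting from 1.

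Clusters wholly within the window were assigned to a region by their midpoint, and covered bases were counted once per strand, with the annotation and sequence of R64 from RefSeq. Lists were compared as covered nt per 100000 nt of the list, with 20 nt added per region or gene, and called past 2-fold. Intervals are Wilson for shares and exact conditional (Clopper-Pearson) for ratios of counts, at 95%. Overlap means at least 1 nt on the same strand. No test was made, and no p-value is given. Named items were all 10 regions on both strands and TAR1, the widest stretches common to the 4 light lists, the 3 widest clusters of 25S and 18S per list, the clusters of the smaller regions, the most covered windows of 100 nt and up to 4 genes per pathway list by size of change. The members and lists were chosen with earlier results of these data known. The ratio was also run on simulated lists, as a check of the calculation only, which says nothing of the values here. Python 3.11.15 with NumPy 2.4.6, SciPy 1.17.1 and matplotlib 3.10.9 were used. The heavy list holds 115 clusters, all in the window, and entered no comparison of list sizes.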

Additional observations from a re-analysis of the deposited data

Results flagged for a closer look

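The heavy total list is outside the comparisons of the report. All 115 of its clusters lie in the window, and it has none in the second repeat, although the sequences are identical there. Whether the list holds every cluster called in the heavy fraction is not known from the sources used here, so its shares are given as values of this list only. Opposite to the 35S strand it has 17 clusters, 18.3% of those within the 35S gene (Wilson interval 11.7 to 27.3). Its widest opposite cluster, in ITS1, is 105 nt wide.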

How the results depend on the processing

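No paired analysis was possible because each deposited list pools both replicates, and leaving out a replicate could not be run for the same reason. Without scaling to the list, the window ratios reversed, to -0.30 for glucose and -0.24 for nitrogen, since those lists are shorter. Light total moved to 0.62 with cluster counts and to 0.0175 on the 35S strand only, and was 0.081 with clusters of at least 10 nt. Window shares on the 35S strand only were 0.426% (glucose), 0.329% (nitrogen), 0.332% (light total) and 0.246% (log-phase polyA). By covered nucleotides they were 0.561% (nitrogen) and 0.441% (log-phase polyA), and with clusters of at least 10 nt 0.417% (log-phase polyA). Regions past 2-fold under nitrogen were 2 with 5 nt added, 0 with 50 nt added, 2 with clusters of at least 10 nt and 2 in the second repeat, and for light total 6 with clusters of at least 10 nt and 1 in the second repeat. For glucose, 3 regions passed without scaling, all lower, where the 2 of the report were higher; 3 passed with 5 nt added (2 higher and 1 lower) and 3 in the second repeat (all higher). For light total, 3 passed without scaling, 1 higher and 2 lower. Overlap with log-phase polyA was 66.7%, 65.5% and 37.8% for glucose, nitrogen and light total when at least 50% of the cluster had to overlap, and 65.8%, 66.7% and 39.6% with clusters of at least 10 nt. Of 59 alternatives, 2 reversed, 21 moved and 36 stayed within the limit set for a move, which for a count of regions is 1.5 times and does not require the same regions or direction. Alternatives on the second repeat's regions and on the identical stretch of the first repeat were chosen after seeing the data. With 1 pooled list per group and no read depth, differences in depth between lists cannot be told apart from differences in binding.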
